A study of Mus musculus with 15 samples.

Results

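The genes described here are the receptors for the monoamines dopamine, serotonin, noradrenaline, adrenaline and histamine, together with the muscarinic receptors for acetylcholine, in mouse thalamus. They were chosen by gene symbol alone, as all symbols that begin with Drd or Htr followed by a digit and those of the adrenergic (Adra, Adrb), histamine (Hrh1 to Hrh4) and muscarinic (Chrm1 to Chrm5) families. Of 25080 genes listed in the deposited data, 37 carried such a symbol, namely 5 dopamine, 14 serotonin, 9 adrenergic, 4 histamine and 5 muscarinic receptors.

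Monoamine and cholinergic neurons send long axons from brainstem, hypothalamus and basal forebrain into the thalamus, so the receptors are made by the target cells while the transmitters come from elsewhere. Almost all of these receptors are G protein-coupled. Those that couple to Gs raise cyclic AMP, those that couple to Gi lower it, and those that couple to Gq release calcium, whereas the Htr3 subunits form an ion channel. Cocaine blocks the reuptake of dopamine, noradrenaline and serotonin and so raises the amount of these transmitters outside the cell.

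RNA was taken from the microdissected thalamus of mice aged 2 to 4 months that carry a floxed Maged1 gene (control) or the floxed gene with Cre driven by the Vglut2 gene, which inactivates Maged1 in neurons that use the glutamate transporter Vglut2 (Maged1-cKO). All mice first had 3 days of saline habituation and then daily injections for 5 days of cocaine at 20 mg/kg or of saline. There were 4 control saline, 4 cKO saline, 4 libraries labelled control cocaine and 2 libraries labelled cKO cocaine, and 1 of the 15 samples was not analysed here. The comparisons ask whether repeated cocaine, Maged1 inactivation or their combination changes the receptor RNAs.

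Values are TPM (transcript abundances scaled to a fixed total per library), which are corrected for transcript length and so can be compared between genes, divided by a trimmed-mean (TMM) factor for each library. The factors were 0.807 to 0.9466 in the 6 cocaine libraries and 1.072 to 1.209 in the 8 saline libraries, so a receptor with the same deposited TPM counts as higher after cocaine here. TPM keep no record of sequencing depth, and the depth behind each value is unknown. Maged1 itself went against the labels after cocaine. After saline it was at 152, 166, 150 and 151 TPM in control mice and at 78.0, 76.6, 68.6 and 64.5 in cKO mice. After cocaine it was at 58.5, 87.9, 77.3 and 71.3 under the control label and at 152 and 174 under the cKO label. The cocaine libraries labelled control therefore lie with the cKO saline libraries and those labelled cKO with the control saline libraries. The groups are kept as labelled, and any genotype direction after cocaine rests on labels that Maged1 contradicts. Within each label, the cocaine comparison also sets libraries of low Maged1 against libraries of high Maged1, or the reverse. Cocaine and the Maged1 level cannot be told apart in those 2 comparisons. The difference between those 2 comparisons (interaction) sets the groups of high Maged1 against the groups of low Maged1. In 4 saline libraries the genotype tag also names the other genotype than the title that was used. Maged1 went with the titles in all 8 saline libraries, so grouping by tag mixes saline libraries of high and low Maged1. The comparison of all cocaine with all saline libraries needs no genotype label, but it rests on the treatment named in the titles. The paper's methods count 8 unsorted samples given chronic cocaine, whereas 8 of the 15 titles name saline. Which count is right is not known, and the titles were followed. The thalamus markers Tcf7l2 and Slc17a6, the gene of Vglut2, were present in all 14 libraries, at 74.0 to 125 and 68.9 to 104 TPM.

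Of the 37 receptors, 26 reached 1 TPM as deposited in at least 3 libraries and were tested among 13471 genes, and 17 reached it in every library. The 26 were 3 dopamine, 8 serotonin, 7 adrenergic, 3 histamine and all 5 muscarinic receptors. None of the 26 was listed at 0 in any library. Drd1, Chrm4, Chrm5 and Htr1a passed with only 3 or 4 libraries at 1 TPM, and of these Drd1 reached it in 2 cKO saline and 1 cKO cocaine library and in no control library. The 11 receptors under the threshold included the dopamine receptors Drd3 and Drd4, the serotonin receptors Htr1d, Htr1f, Htr2b and Htr6, both subunits of the serotonin-gated channel, Htr3a and Htr3b, and the histamine receptor Hrh4, which was listed at 0 in all 14 libraries.

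The histamine autoreceptor and heteroreceptor Hrh3, which couples to Gi, had by far the most RNA, with a mean of 39.2 TPM over the 14 libraries and 91.1% of the tested genes below it. Htr2c (15.4) and Adra1b (14.2), both coupled to Gq, came next and did not differ beyond their spread, since their ranges of 12.7 to 19.1 and 10.8 to 19.0 overlapped. Adrb1 (8.72), Htr7 (8.20), Chrm2 (7.68) and Chrm3 (6.56) formed the next overlapping set, and no other receptor had a mean above 3.93. Summed by family, histamine receptors made up a median of 30.6% of the receptor RNA, adrenergic receptors 27.3%, serotonin receptors 24.2%, muscarinic receptors 12.1% and dopamine receptors 4.40%. The sum over all 37 receptors ranged from 132 to 165 TPM.

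**Figure D1:**
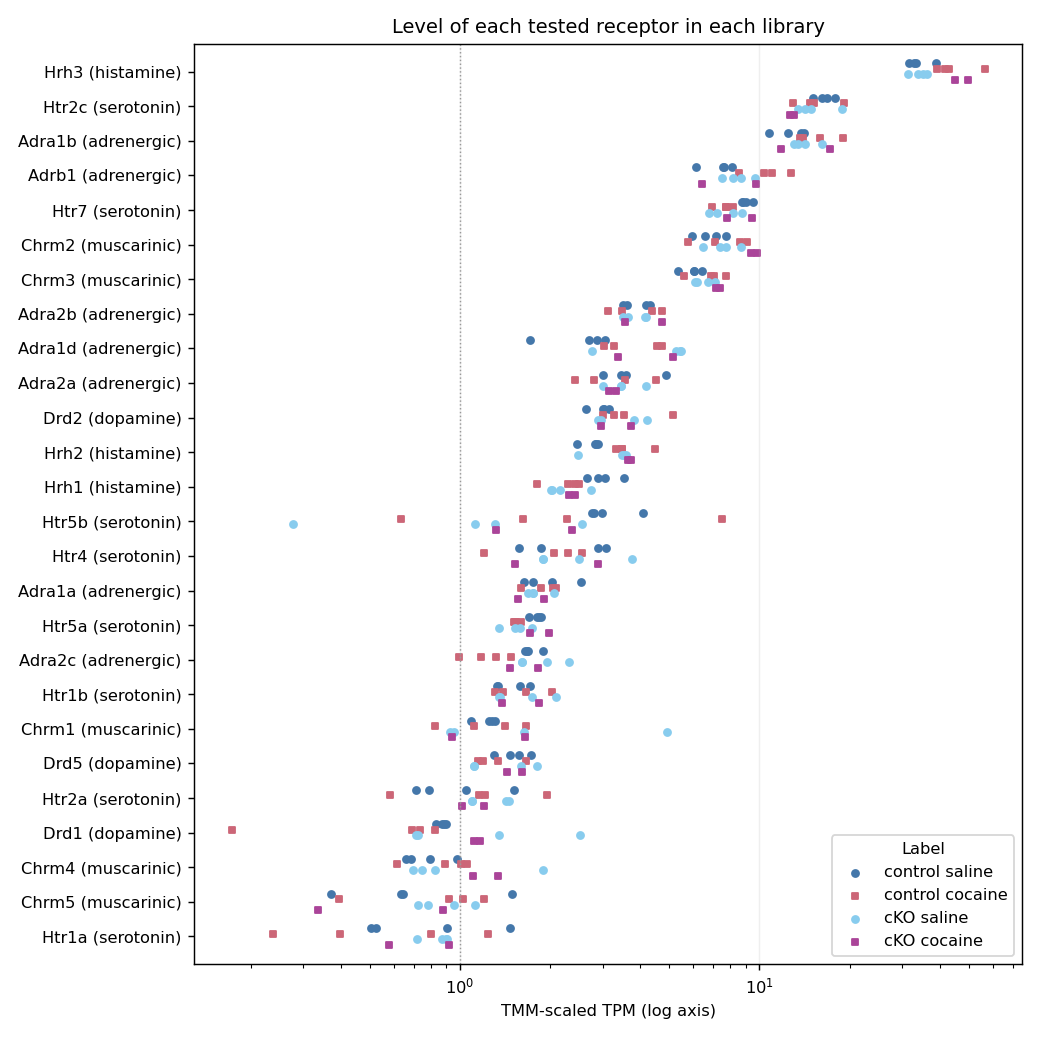
TMM-scaled TPM of the 26 tested receptors in the 14 libraries, on a log axis, with 1 point a library and the family in parentheses. Hrh3 stands apart at 31.3 to 56.5, while Htr5b spreads from 0.276 to 7.47 and Chrm1 has a single library at 4.89.

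In the comparison of the libraries labelled control cocaine with control saline, limma called 1 receptor higher, Adrb1, and 0 lower at an adjusted p under 0.05 and a log2 fold change of at least 0.5, where 1.54% of all tested genes were called higher and 1.56% lower. Without the fold minimum 3 receptors were higher (Adrb1, Hrh3 and Hrh2) and 2 lower (Hrh1 and Adra2c), against 15% and 9.35% of all genes, and 9 receptors had an unadjusted p under 0.05, against 36.9%. The share of receptors with an adjusted p under 0.05, 19.2%, was therefore no larger than that of all genes. The median log2 fold change of the 26 receptors was -0.00, against 0.01 over all genes, with 12 positive and 14 negative. For the cKO label 0 receptors were called, where 1.83% of genes were called higher and 1.24% lower, and 1 receptor, Hrh3, had an adjusted p under 0.05, as did 9.19% of genes in that direction. It was also the 1 receptor with an unadjusted p under 0.05, against 33.7% of genes. Over all cocaine against all saline libraries 0 receptors were called, where 1.07% of genes were called higher and 1.01% lower. Without the minimum Hrh3 and Hrh2 were higher and Adra2c lower, against 17% and 14.2% of genes, and 4 receptors had an unadjusted p under 0.05, against 41.4%. These 3 comparisons share their libraries and are not independent.

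**Figure D2:**
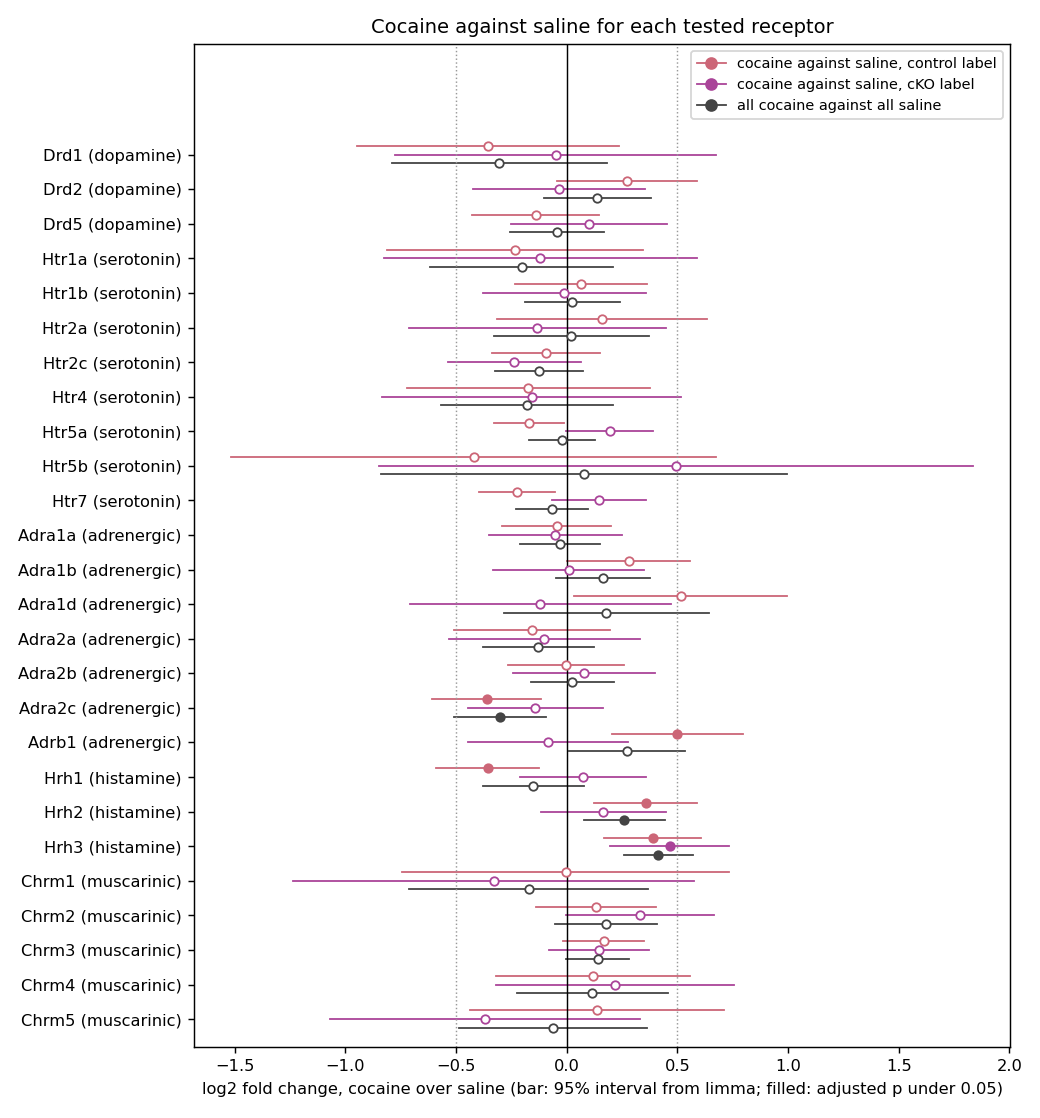
Log2 fold change of each tested receptor for cocaine over saline, with its 95% interval from limma, in the libraries labelled control, in those labelled cKO and in all libraries. Filled points have an adjusted p under 0.05, and dotted lines mark the minimum of 0.5, which Adrb1 reached at 0.50 and Hrh3 missed at 0.39, 0.46 and 0.41.

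The histamine receptors held the clearest difference. Hrh3, the presynaptic receptor that limits the release of histamine and other transmitters, lies on the minus strand of chromosome 2 (GRCm38, 180099465 to 180104488). It was at 33.3, 31.6, 38.9 and 32.8 TPM in control saline and at 33.8, 35.2, 36.2 and 31.3 in cKO saline. After cocaine it was at 39.2, 41.7, 43.0 and 56.5 under the control label and at 44.8 and 49.7 under the cKO label. All 6 cocaine libraries were above all 8 saline libraries, as was true of 5.77% of the tested genes, and Hrh3 was the only receptor of which this held. The narrowest gap was that between control saline replicate 3 and control cocaine replicate 1. The mean was 34.1 ± 2.54 after saline (SD, n = 8) and 45.8 ± 6.31 after cocaine (n = 6). In limma the log2 fold change over all libraries was 0.41 (SE 0.07, adjusted p = 0.000705), with 0.39 (SE 0.10, adjusted p = 0.0147) under the control label and 0.46 (SE 0.12, adjusted p = 0.0201) under the cKO label. The estimates for the 2 labels differed by 0.08 (interaction, 95% interval -0.27 to 0.42, adjusted p = 0.846), and between the saline genotypes Hrh3 differed by 0.00 (95% interval -0.22 to 0.22). Without any 1 of the 14 libraries the all-library adjusted p stayed between 0.000339 and 0.00248. Under the cKO label it was 0.177 without cKO cocaine replicate 2. On TPM as deposited, with no scaling, the Hrh3 difference was 0.03 over all libraries (adjusted p = 0.759), on a scale where the median gene moved by -0.341, so the difference is relative to the other genes of the library.

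Hrh2, which couples to Gs and excites thalamic relay neurons, lies on chromosome 13 from 54192129 to 54236180 on the plus strand. Its level was 2.47, 2.89, 2.82 and 2.84 in control saline and 3.47, 3.48, 3.31 and 4.47 under the label control cocaine. These groups did not overlap, as for 14.9% of tested genes with the cocaine group above. In cKO saline Hrh2 was at 3.52, 3.46, 3.57 and 2.48, so 3 of these 4 libraries already lay among the cocaine values, and under the label cKO cocaine it was at 3.63 and 3.73. The log2 fold change was 0.36 under the control label (SE 0.11, adjusted p = 0.0288) and 0.26 over all libraries (SE 0.09, adjusted p = 0.0324). The control-label adjusted p stayed under 0.05 when any of 10 of the 14 libraries was left out, and not without control cocaine replicate 4 (adjusted p = 0.0832) or control saline replicate 1 (0.0749), 3 (0.0526) or 4 (0.0506). Over all libraries it held in 7 of 14, and was 0.0799 without control cocaine replicate 4, 0.0602 without cKO cocaine replicate 2, 0.0581 without cKO saline replicate 4, and 0.0556, 0.0505, 0.0553 and 0.0542 without control saline replicates 1 to 4. As deposited, the all-library value was -0.079.

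Hrh1, the Gq-coupled receptor through which histamine promotes wakefulness, lies on chromosome 6 from 114397936 to 114483296 on the plus strand. It was at 2.66, 3.52, 3.04 and 2.88 TPM in control saline and at 2.30, 2.42, 1.80 and 2.50 under the label control cocaine, so the cocaine group lay below without overlap, as for 10.3% of tested genes. In cKO saline it was at 2.01, 2.16, 2.75 and 2.02 and under the label cKO cocaine at 2.31 and 2.42. The control saline libraries were thus the high ones, together with cKO saline replicate 3, and the other 3 groups overlapped. The log2 fold change was -0.36 under the control label (SE 0.11, adjusted p = 0.0299), 0.07 under the cKO label, and -0.37 for cKO against control after saline (SE 0.11, adjusted p = 0.130). The difference between the cocaine estimates of the 2 labels was 0.43 (SE 0.17, adjusted p = 0.196) and did not pass the test. Without control cocaine replicate 3, or control saline replicate 2 or 3, the control-label adjusted p was 0.0794, 0.0881 or 0.0629. With the libraries grouped by the genotype tag instead of the title, the control-label values were -0.15 for Hrh1 (adjusted p = 0.54), 0.23 for Hrh2 (adjusted p = 0.217) and 0.41 for Hrh3 (adjusted p = 0.0147). With only the libraries whose title and tag agree, none of the 3 was past the threshold under the control label (adjusted p = 0.16, 0.134 and 0.0739), while Hrh3 over all such libraries was at 0.46 (adjusted p = 0.00859). The control-label results of Hrh1 and Hrh2 thus depend on whether title or tag is used. Maged1 after saline went with the titles and not with the tags. Hdc, the enzyme that makes histamine, was at 0.139 to 1.61 TPM in these libraries.

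**Figure D3:**
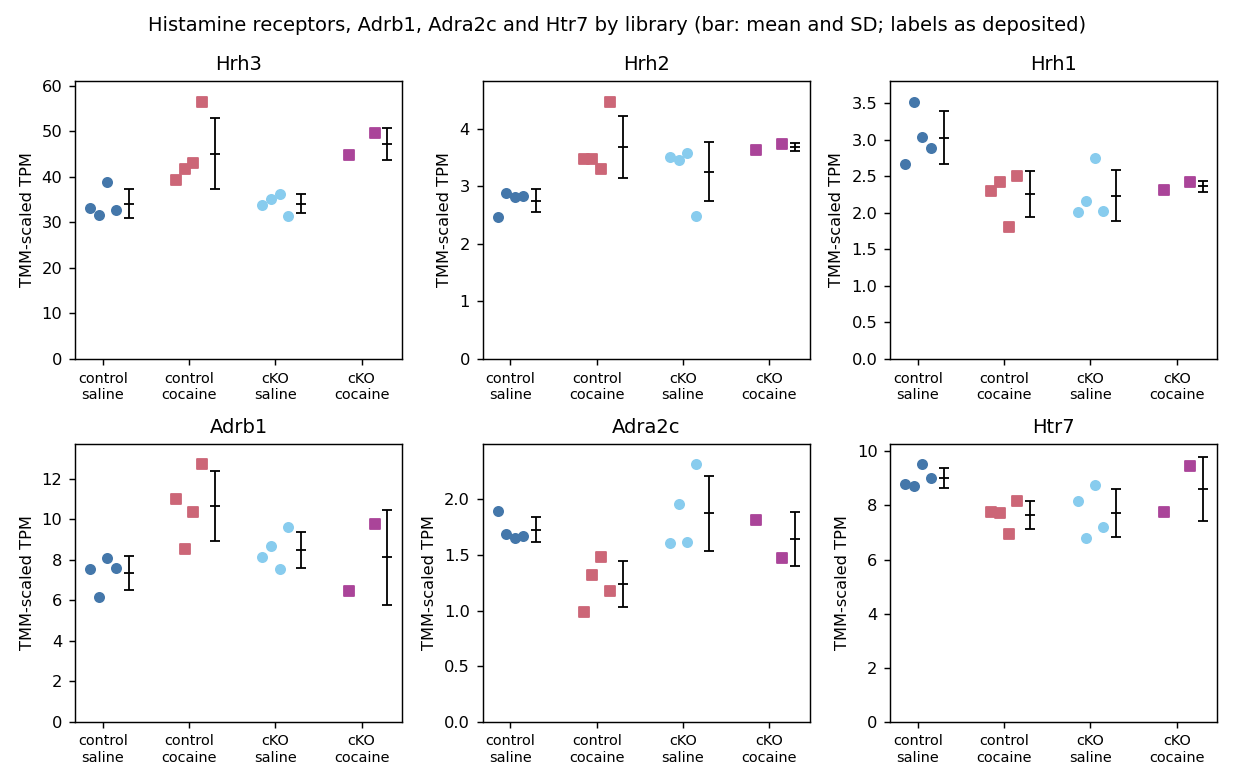
TMM-scaled TPM by library for the 3 histamine receptors, Adrb1, Adra2c and Htr7, with the mean and SD of each labelled group beside the points. For Hrh3 the 6 cocaine libraries, at 39.2 to 56.5, lie above the 8 saline libraries, at 31.3 to 38.9, while Adrb1 in the cKO label (6.45 and 9.77) spans most of the saline range.

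Among adrenergic receptors, Adrb1, the Gs-coupled receptor also known from the heart, was the single receptor called in any of the 6 comparisons. It lies on chromosome 19 from 56722199 to 56733113 on the plus strand. It was at 7.53, 6.13, 8.10 and 7.60 TPM in control saline. Under the label control cocaine it was at 11.0, 8.52, 10.4 and 12.7, above without overlap, as for 14.9% of tested genes. In cKO saline it was at 8.15, 8.66, 7.52 and 9.64, and under the label cKO cocaine at 6.45 and 9.77, below and above all of them. The log2 fold change was 0.50 under the control label (SE 0.14, 95% interval 0.21 to 0.80, adjusted p = 0.0184) and -0.08 under the cKO label (SE 0.17, 95% interval -0.45 to 0.28). The difference of these estimates was -0.58 (SE 0.22, adjusted p = 0.168), so the labels were not shown to differ. Adrb1 was no longer called without control cocaine replicate 4 (log2 0.41, adjusted p = 0.0573), control saline replicate 2 (0.42, adjusted p = 0.0558) or control cocaine replicate 1, where the estimate of 0.48 was under the minimum (adjusted p = 0.0351). With genotype from the tag it was at 0.45 (adjusted p = 0.048), and with only the libraries whose title and tag agree at 0.60 (adjusted p = 0.0922). On TPM as deposited its log2 fold change was 0.14 (adjusted p = 0.274). Over all cocaine against all saline libraries, with TMM scaling, the Adrb1 log2 fold change was 0.27 (SE 0.12, adjusted p = 0.106). That adjusted p was under 0.05 in 1 of the 14 fits that each left out 1 library.

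Adra2c, a Gi-coupled receptor that limits noradrenaline release, lies on chromosome 5 from 35278319 to 35281763 on the plus strand. It was at 1.90, 1.69, 1.65 and 1.67 TPM in control saline. Under the label control cocaine it was at 0.991, 1.32, 1.48 and 1.17, below without overlap, as for 10.3% of tested genes. In cKO saline it was at 1.61, 1.96, 1.61 and 2.31, and under the label cKO cocaine at 1.82 and 1.47, within the saline range or just below it. The log2 fold change was -0.36 under the control label (SE 0.11, adjusted p = 0.0363) and -0.30 over all libraries (SE 0.10, adjusted p = 0.0282). Under the control label the adjusted p was over 0.05 without control cocaine replicate 1, 2 or 4 (0.0791, 0.0503 and 0.0813) or without control saline replicate 1, 2, 3 or 4 (0.0876, 0.0668, 0.0596 and 0.0637). Over all libraries it was over 0.05 without control cocaine replicate 1, 2 or 4 (0.0602, 0.0509 and 0.0637). With only the libraries whose title and tag agree it was 0.157 under the control label and 0.0932 over all of them.

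Adra1b, the most abundant adrenergic receptor, couples to Gq. It was at 13.8, 10.8, 14.1 and 12.4 TPM in control saline, 15.9, 14.0, 13.7 and 19.0 under the label control cocaine, 16.2, 14.2, 13.4 and 13.1 in cKO saline, and 11.8 and 17.2 under the label cKO cocaine. All of these groups overlapped, and the control-label log2 fold change of 0.28 had an adjusted p of 0.135. Adra2b, coupled to Gi, was at 3.61, 3.51, 4.32 and 4.16 in control saline, 4.37, 3.12, 3.48 and 4.73 under the label control cocaine, 3.49, 4.18, 4.13 and 3.64 in cKO saline, and 3.55 and 4.72 under the label cKO cocaine, with overlap throughout. Adra1d had the largest control-label estimate, 0.51, but also a wide spread (SE 0.22, adjusted p = 0.111), and was at 5.42, 5.27, 2.76 and 5.46 in cKO saline against 3.04, 2.69, 2.87 and 1.71 in control saline (log2 0.75, SE 0.22, adjusted p = 0.135). Adra1a, at 1.56 to 2.53, and Adra2a, at 2.43 to 4.87, had no unadjusted p under 0.05 in any comparison.

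The sequences before the start sites are shown for Hrh3 and for Adrb1, the 1 receptor called under the control label. Many of these receptors act through cyclic AMP, whose response element (CRE) and its half-site can be looked for there. The sequences come from RefSeq (GRCm38.p6) on the strand of the gene. For Hrh3, on the minus strand, the bases printed are chr2:180104489-180104657, the part of the 250 bases before the RefSeq start that lies outside the GENCODE gene. For Adrb1, on the plus strand, they are chr19:56721867-56722116. Capitals mark GC boxes (GGGCGG or CCGCCC) and CRE half-sites (TGACG or CGTCA).
Hrh3: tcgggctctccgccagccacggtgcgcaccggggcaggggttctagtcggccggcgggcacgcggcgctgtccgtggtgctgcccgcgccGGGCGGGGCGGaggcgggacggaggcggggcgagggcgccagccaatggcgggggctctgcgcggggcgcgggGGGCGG
Adrb1: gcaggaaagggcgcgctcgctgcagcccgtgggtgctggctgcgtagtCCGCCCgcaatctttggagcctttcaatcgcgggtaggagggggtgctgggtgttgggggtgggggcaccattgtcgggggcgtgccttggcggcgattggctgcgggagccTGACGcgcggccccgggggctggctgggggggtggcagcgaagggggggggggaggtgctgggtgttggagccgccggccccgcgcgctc
The Hrh3 stretch holds 3 GC boxes and no CRE half-site, and the Adrb1 stretch holds 1 of each. Such 250-base windows were found for 28 of the 37 receptors. The full CRE (TGACGTCA, which contains both half-sites) was in 0 of these, against 1.62% of 27025 promoters, and a half-site on either strand was in 3 (Adrb1, Adra2a and Htr7), against 17.9%. A GC box was in 15 of 28, against 32.9% of all promoters, and the AP-1 letters TGANTCA in 3, against 6.87%. The 21 windows of tested receptors had a median GC content of 62.0% and 13 CpG dinucleotides, against 52.0% and 6 over all promoters, and the Hrh3 window had 80.8% and 42. A match of letters is a description of these windows only.

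Dopamine receptors had the least RNA of the 5 families. Drd2, coupled to Gi, was at 3.03, 2.99, 2.64 and 3.15 TPM in control saline, 3.53, 5.14, 3.27 and 3.01 under the label control cocaine, 3.80, 4.21, 2.95 and 2.89 in cKO saline, and 2.96 and 3.73 under the label cKO cocaine. The groups overlapped and the control-label log2 fold change was 0.27 (95% interval -0.04 to 0.59). The library with the most Drd2, control cocaine replicate 2, also had the most Th and Slc6a3, the tyrosine hydroxylase and dopamine transporter of dopamine neurons, at 17.3 and 10.6 TPM. In the other 13 libraries Th was at 1.29 to 6.36 and Slc6a3 at 0.0292 to 3.43. Drd5, coupled to Gs, was at 1.72, 1.57, 1.47 and 1.30 in control saline, 1.66, 1.34, 1.15 and 1.19 under the label control cocaine, 1.12, 1.11, 1.60 and 1.81 in cKO saline, and 1.61 and 1.43 under the label cKO cocaine, again with overlap.

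Drd1, the main Gs-coupled dopamine receptor of the striatum, was at 0.899, 0.869, 0.885 and 0.830 TPM in control saline and at 0.173, 0.692, 0.737 and 0.826 under the label control cocaine. The cocaine values lay below the saline ones by as little as the gap from 0.826 to 0.830, and the test gave no difference (log2 -0.36, 95% interval across 0). In cKO saline Drd1 was at 0.715, 2.51, 0.727 and 1.35, and under the label cKO cocaine at 1.11 and 1.17. The high library, cKO saline replicate 2, was also the highest for the muscarinic receptor Chrm4 (1.90, against 0.615 to 1.34 elsewhere) and for the striatal genes Adora2a (3.04, against 0.237 to 0.691), Gpr6 (1.16) and Penk (20.3). The summed striatum list was at 85.0 TPM there, at 49.6 to 51.6 in the other cKO saline libraries, at 52.8 to 63.7 in control saline, at 53.3 to 61.0 under the label control cocaine, and at 56.8 and 60.3 under the label cKO cocaine. The part of striatal RNA in the Drd1 and Chrm4 values of this library was not tested.

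No serotonin receptor had an adjusted p under 0.05 in the 3 cocaine comparisons in limma. Under the control label Htr5a and Htr7 lay below saline without overlap, as for 10.3% of tested genes. Htr2c, coupled to Gq and also abundant in choroid plexus, was at 17.8, 16.8, 15.1 and 16.1 TPM in control saline, 19.1, 13.0, 14.8 and 15.2 under the label control cocaine, 13.4, 14.2, 18.9 and 14.9 in cKO saline, and 12.7 and 13.0 under the label cKO cocaine. The last 2 values lay below all cKO saline values, as for 22.2% of tested genes, with a log2 fold change of -0.24 (95% interval -0.54 to 0.06, adjusted p = 0.257). Ttr, the leading choroid plexus gene, was at 1406 in control saline replicate 1 and at 1.54 to 50.9 in the other libraries, and Htr2c in that library, at 17.8, was below control cocaine replicate 1 and cKO saline replicate 3. Htr7, coupled to Gs, was at 8.78, 8.73, 9.52 and 9.02 in control saline and at 7.75, 7.73, 6.95 and 8.17 under the label control cocaine. These groups did not overlap, but the log2 fold change of -0.23 (SE 0.08) had an adjusted p of 0.0578. Htr7 was at 8.17, 6.79, 8.76 and 7.22 in cKO saline and at 7.77 and 9.45 under the label cKO cocaine.

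Htr5a, a Gi-coupled receptor, had the smallest spread within groups of the tested receptors. It was at 1.71, 1.86, 1.81 and 1.83 TPM in control saline, 1.60, 1.53, 1.51 and 1.53 under the label control cocaine, 1.53, 1.35, 1.58 and 1.74 in cKO saline, and 1.98 and 1.71 under the label cKO cocaine. The cocaine group of the control label lay below saline without overlap, as for 10.3% of tested genes. The cocaine group of the cKO label lay above that group, as for 7.03% of tested genes. The log2 fold changes were -0.17 (SE 0.07, adjusted p = 0.109) under the control label and an interaction of 0.36 (SE 0.12, adjusted p = 0.114), so none passed the test. In 6 of the 8 tested serotonin receptors the control-label estimate was negative, with a median of -0.17 against 0.01 over all genes, and 0 had an adjusted p under 0.05.

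Htr5b, a receptor of the habenula that is a pseudogene in humans, varied most. It was at 2.98, 2.76, 2.80 and 4.08 TPM in control saline, 7.47, 1.63, 2.28 and 0.635 under the label control cocaine, 0.276, 1.31, 1.12 and 2.56 in cKO saline, and 2.37 and 1.32 under the label cKO cocaine. The highest and lowest of the 14 libraries differed 27.1-fold. Gpr151, a marker of habenular neurons, was highest and lowest in the same libraries, at 33.3 in control cocaine replicate 1 and 1.18 in cKO saline replicate 1, a 28.1-fold difference. The Htr5b level was 15.7% to 29.1% of the Gpr151 level in every library. The habenula lies against the dorsal thalamus, and the summed habenula list of 10 genes was at 66.4 to 137 TPM in the cKO saline libraries and 201 to 232 in the control saline libraries, and after cocaine at 90.0 to 326 under the control label and at 175 and 217 under the cKO label. Htr5b was lower in cKO saline than in control saline without overlap, as for 5.8% of genes, with a log2 difference of -1.16 (SE 0.51, adjusted p = 0.270). In bulk tissue, fewer cells of a type and less RNA in each cell cannot be told apart.

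**Figure D4:**
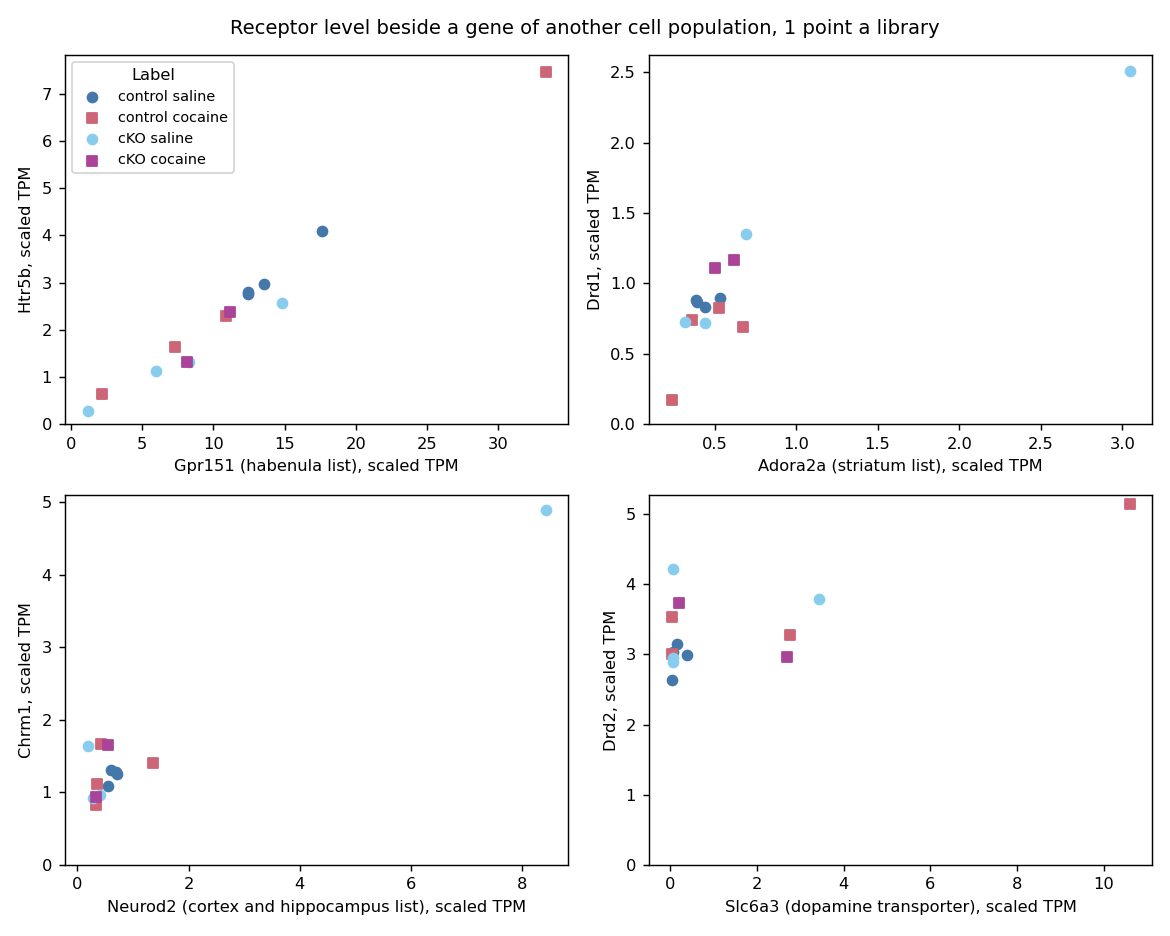
Level of 4 receptors in each library (vertical axis, scaled TPM) beside a gene of another cell population (horizontal axis, scaled TPM), with 1 point a library and colours for the labelled groups. Htr5b lies along a line with Gpr151 over all 14 libraries, whereas Drd1, Chrm1 and Drd2 have their highest value in the single library with the most Adora2a, Neurod2 or Slc6a3.

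Of the other serotonin receptors, Htr4 (Gs) ranged from 1.20 to 3.76 TPM and was highest in cKO saline replicate 4. Htr1b (Gi) ranged from 1.31 to 2.09, Htr2a (Gq) from 0.586 to 1.95 and Htr1a (Gi) from 0.238 to 1.47, with no unadjusted p under 0.05 in any comparison. Htr6, a Gs-coupled receptor under the threshold of the test, was at 0.247, 0.627, 0.456 and 0.342 in control saline and at 0.195, 0.122, 0.346 and 0.319 in cKO saline. It was listed at 0, 0, 0.216 and 0.238 under the label control cocaine and at 0 in both libraries labelled cKO cocaine, so no fold is given for the latter.

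All 5 muscarinic receptors were tested. Chrm2, the Gi-coupled autoreceptor of cholinergic neurons that is also found on thalamic neurons, was at 6.60, 7.72, 7.14 and 5.95 TPM in control saline, 5.75, 8.58, 7.10 and 9.10 under the label control cocaine, and 8.69, 7.76, 7.36 and 6.49 in cKO saline. Under the label cKO cocaine it was at 9.85 and 9.39, above all other libraries. Chrm2 lay above the libraries labelled control cocaine without overlap, as did Htr5a and 7.03% of tested genes. Chrm4 and Drd1 also did, but they reached 1 TPM in only 3 libraries each, none of them labelled control cocaine, so nothing is read from their order. The log2 fold change of Chrm2 against the libraries labelled control cocaine was 0.33 (SE 0.15, adjusted p = 0.411). Chrm3, coupled to Gq, was at 5.35, 6.45, 6.06 and 6.06 in control saline, 5.60, 7.73, 7.03 and 6.87 under the label control cocaine, 7.12, 6.20, 6.74 and 6.11 in cKO saline, and 7.16 and 7.39 under the label cKO cocaine. For the cKO label both Chrm2 and Chrm3 were above saline without overlap, as were 21.1% of tested genes, and neither passed the test.

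Chrm1, the Gq-coupled receptor of cortical and hippocampal neurons, was at 1.28, 1.31, 1.09 and 1.25 TPM in control saline, 1.41, 1.66, 1.11 and 0.827 under the label control cocaine, 0.957, 1.63, 0.928 and 4.89 in cKO saline, and 1.65 and 0.940 under the label cKO cocaine. A single library, cKO saline replicate 4, was high. That library also had the most Neurod2 (8.42, against 0.184 to 1.35 elsewhere) and Emx1 (1.37, against 0 to 0.0781), transcription factors of cortical and hippocampal excitatory neurons. The summed cortex and hippocampus list was at 59.2 to 75.2 in cKO saline, 59.9 to 65.1 in control saline, 57.2 to 66.1 under the label control cocaine, and 67.4 and 68.9 under the label cKO cocaine. The part of such RNA in the Chrm1 value was not tested. Chrm5, coupled to Gq, was at 0.337 to 1.49 over the 14 libraries. After saline the cKO estimates of all 5 muscarinic receptors were positive, from 0.12 to 0.35, and none had an adjusted p under 0.05. The estimates of Chrm1 and Chrm4 each include 1 high cKO saline library, at 4.89 and 1.90 TPM, so nothing is read from the shared sign.

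**Figure D5:**
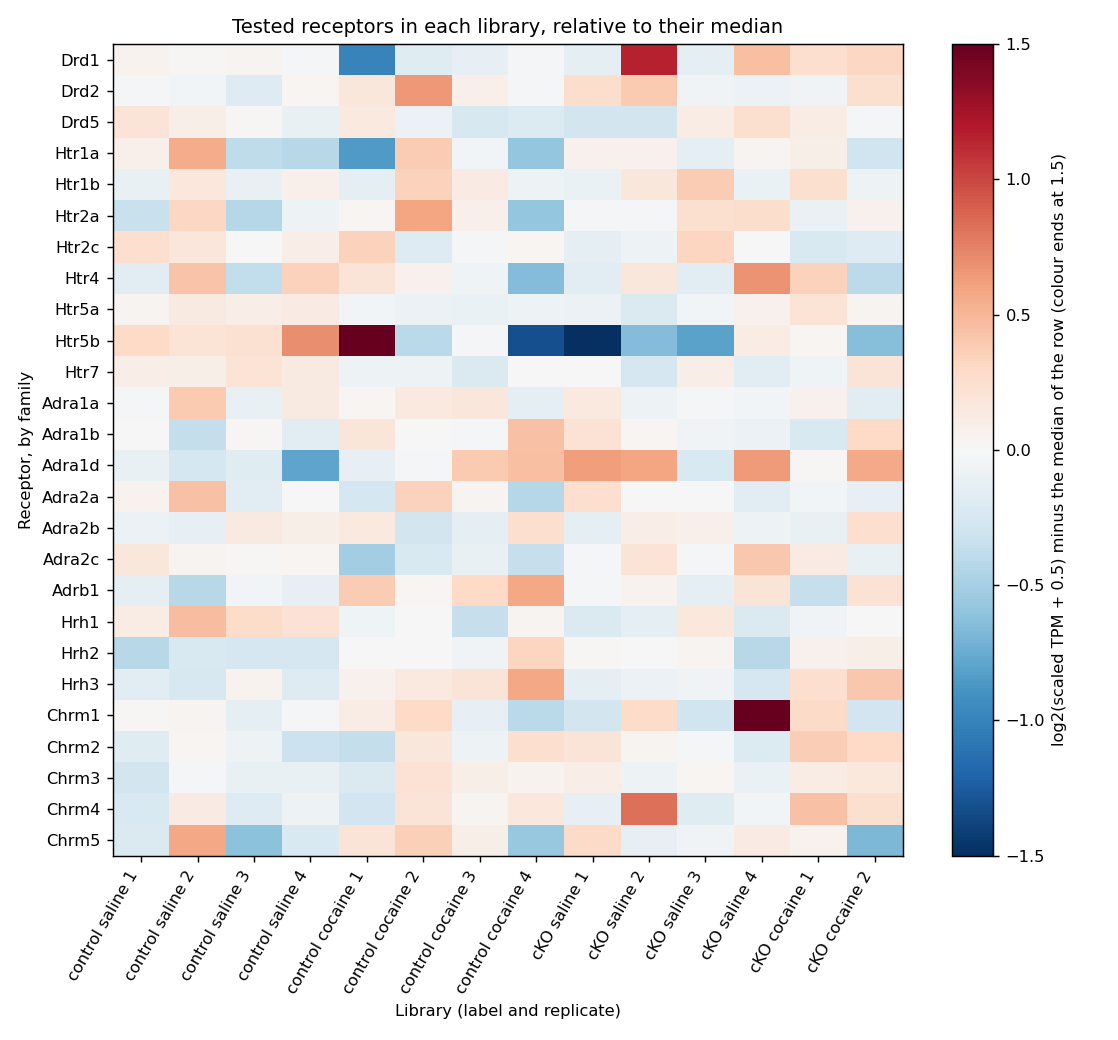
Tested receptors in each library as log2(scaled TPM + 0.5) minus the median of that receptor over the 14 libraries, with receptors ordered by family and colours ending at 1.5. The Hrh3 row is red in the 6 cocaine libraries, and the darkest cells are single libraries, namely Htr5b in control cocaine replicate 1 and cKO saline replicate 1, Drd1 in cKO saline replicate 2 and Chrm1 in cKO saline replicate 4.

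Between genotypes no receptor was called by limma. For cKO against control after saline 0 receptors passed, where 0% of genes were called higher and 0.0445% lower, and 5 receptors (Adra1d, Hrh1, Htr5a, Htr5b and Htr7) had an unadjusted p under 0.05, against 16.7% of genes. For the labels cKO against control after cocaine 0 passed, where 0.00742% of genes were called higher and 0.0297% lower, and 4 (Adrb1, Adra2c, Chrm2 and Htr5a) had an unadjusted p under 0.05, against 12.1%. For the interaction 0 passed, where 0.468% were called higher and 0.386% lower, and 4 (Adrb1, Hrh1, Htr5a and Htr7) had an unadjusted p under 0.05, against 18.5%.

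Some thalamus marker genes were also higher in the libraries labelled control cocaine, and the part of tissue composition in the receptor values was not tested. The summed thalamus list of 12 genes was at 537 to 695 TPM in the cKO saline libraries and 445 to 608 in the control saline libraries, and after cocaine at 613 to 835 under the control label and at 575 and 703 under the cKO label. Of its 12 genes 4 were called higher and 0 lower under the control label, where 1.54% of all tested genes were called higher and 1.56% lower, with a median log2 fold change of 0.28. Other lists moved as much or more in that comparison. Of 11 tested hypothalamus genes 5 were called lower, with a median of -1.45, and all 10 habenula genes (median -0.38), all 11 tested ependyma genes (-0.75) and all 5 tested choroid plexus genes (-0.94) were negative. All 10 oligodendrocyte genes were positive, with a median of 0.28. Under the cKO label the habenula and ependyma genes were all positive, with medians of 0.87 and 0.97. In a fit chosen after seeing the data, with the mean of the thalamus list as a covariate, Hrh3 had a log2 fold change of 0.25 over all libraries (SE 0.08, adjusted p = 0.0361), 0.34 under the cKO label (adjusted p = 0.0287) and 0.15 under the control label (adjusted p = 0.371). Under the control label Adrb1 was then at 0.25 (adjusted p = 0.349) and Hrh2 at 0.15 (adjusted p = 0.488). Under that label Adra2c was at -0.14 (adjusted p = 0.547) and Hrh1 at -0.46 (adjusted p = 0.0681). The thalamus list itself was higher after cocaine under the control label, so this fit cannot separate composition from cocaine or the Maged1 level.

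Of 70 genes that make, move, break down or relay these transmitters, 59 were tested. Under the control label 2 were called higher, the G protein subunit Gng3 (log2 0.55) and the regulator of G protein signalling Rgs16 (0.64), and 1 lower, the monoamine oxidase Maob (-0.57). These are 3.39% and 1.69% of the 59, against 1.54% and 1.56% of all tested genes. Under the cKO label 2 were called higher, Maob (0.78) and Gng3 (0.69), and 1 lower, Rgs4 (-0.51), against 1.83% and 1.24% of all tested genes. With 1 or 2 genes in each direction, nothing is read from these shares. Gng3, which forms part of the beta-gamma dimer that many of these receptors release, was at 40.5, 42.9, 42.4 and 41.4 TPM in control saline and 40.7, 40.3, 41.4 and 35.8 in cKO saline. After cocaine it was at 59.5, 61.5, 58.3 and 66.2 under the control label and 60.9 and 66.9 under the cKO label. Gng3 thus lay above all saline libraries, as did 5.77% of tested genes. Over all libraries it was the 1 gene called of the 59, where 1.07% of all tested genes were called higher, with a log2 fold change of 0.61 (SE 0.04, adjusted p = 3.8e-07). Dbh, Tph2 and Slc6a4, which make noradrenaline and serotonin or take serotonin up and belong to brainstem neurons, were at no more than 0.347 TPM in any library.

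By the GENCODE M21 annotation the 37 receptors lie on 15 chromosomes. In 17 of them, 14 of the tested ones, a single exon holds the whole coding sequence, as in Adrb1, Adra2c and Hrh1, whereas Hrh3 has 5 coding exons. No receptor shares exonic bases with another gene on the same strand and 7 do on the opposite strand, among them Hrh3 with Gm17180. The kit used keeps the strand, and the counting setting is not given in the sources used here.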

How the data were processed

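The authors mapped paired reads of rRNA-depleted, strand-specific libraries with STAR 2.5.3a to GRCm38.p4, quantified them with Salmon and deposited 1 table of TPM per library. In 2 deposited tables the values have a decimal comma (unit recorded as other) and were read as TPM. The listed genes summed to 312659 to 377401 TPM, and 14 of 15 samples were analysed.

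TPM were divided by unweighted TMM factors (30% of log ratios and 5% of means trimmed), 0.5 was added and log2 was taken, which understates changes of low genes. Genes with at least 1 TPM in 3 libraries (13471) entered limma 3.58.1 (R 4.3.3) with a means model of 4 groups and an intensity trend. The comparison of all cocaine with all saline used a model of 2 treatments. P-values were adjusted by Benjamini-Hochberg over all tested genes, and a call needed an adjusted p below 0.05 with a log2 fold change of 0.5 or more in either direction. Nothing in the labels beyond sample titles says that replicates are separate animals, so p-values measure the spread between these samples. Groups and replicate numbers follow the titles.

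Receptors described in full are those called and the 3 of highest mean TPM per family, and others are named where an unadjusted p was under 0.05 or, chosen after their values were seen, where a single library stood out. Not every receptor under the threshold is reported here. The receptors and gene lists were chosen with earlier results of these data known. Tested on simulated data for the control-label cocaine comparison (13471 genes), 191 of 200 genes given a log2 change of 1 were called, with 1 false call. The control-label estimates of the receptors, from -0.42 to 0.51, are smaller than that, and the recovery of such changes was not tested. The simulated library factors were drawn without regard to treatment, whereas those of the data differ between cocaine and saline. The 1 false call is therefore no measure of false calls in these data. Figures used Python 3.11.15 and matplotlib 3.10.9.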

Additional observations from a re-analysis of the deposited data

Results flagged for a closer look

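In 78 sets of 4 libraries (26 receptors in 3 groups), 6 values lay apart from the other 3 of their group by Dixon's test at 95%, where chance alone gives about 1 in 20 groups. These were Adra1d in cKO saline replicate 3 (2.76 TPM, the others 5.27 to 5.46), Chrm4 in cKO saline replicate 2 (1.90), and Htr5b in control saline replicate 4 (4.08). The remaining 3 were all of Hrh2, low in control saline replicate 1 (2.47) and cKO saline replicate 4 (2.48) and high in control cocaine replicate 4 (4.47).

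Among the genes that relay or break down these transmitters, 2 had cocaine estimates that differed between the labelled genotypes by the interaction test in limma. These differences rest on cocaine labels that Maged1 contradicts. By its Maged1 level, the interaction sets control saline and the libraries labelled cKO cocaine against cKO saline and those labelled control cocaine. A different response to cocaine and a difference that goes with the Maged1 level therefore cannot be told apart here. Over all tested genes the interaction had 63 called higher and 52 lower. With only the libraries whose title and tag agree, those counts were 4 and 0. Maob differed by 1.34 on the log2 scale (adjusted p = 0.0247), from -0.57 under the control label to 0.78 under the cKO label. Rgs4, a regulator of G protein signalling, differed by -0.95 (adjusted p = 0.0488), from 0.44 to -0.51. After cocaine under the control label Maob was at 13.7, 10.8, 14.6 and 19.2 TPM, against 12.05 to 16.2 in cKO saline. Under the cKO label it was at 21.4 and 24.9, and control saline spanned 18.7 to 25.1. Control cocaine replicate 4 lay above all cKO saline libraries and within the control saline range.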

How the results depend on the processing

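Adrb1, the 1 receptor called higher under the control label, gave a count of 0 with TPM as deposited, median-of-ratios or quantile scaling, a pseudocount of 1, genotype from the tag, only the libraries whose title and tag agree, or the thalamus covariate, and 0 to 1 when each library was left out. It stayed at 1 under the other alternatives, except that without the fold minimum 3 receptors were higher. Lower under that label, 3 were called on TPM as deposited (Adra2c, Hrh1 and Htr7), 2 with no filter on low values (Htr1d and Htr6) and 2 without the fold minimum, in place of 0. Under the cKO label Hrh3 made the count 1 in place of 0 with the replicate block, without the fold minimum and on leaving out libraries (0 to 1, reached without cKO cocaine replicate 1), and 1 was lower (Htr2c) on TPM as deposited. Over all libraries 2 were higher without the minimum, and 2 (Adra2c and Drd1), 1 (Htr6) and 1 (Adra2c) were lower on TPM as deposited, with no filter and without the minimum. On TPM as deposited 4 estimates turned negative, Adra1b under the cKO label (-0.36) and, over all libraries, Adra2b (-0.32), Chrm3 (-0.22) and Hrh2 (-0.079). On that scale the median gene moved by -0.335 under the control label, -0.346 under the cKO label and -0.341 over all libraries, and 53 genes were called higher and 2372 lower under the control label, against 207 and 210 with TMM. The counts were 65 and 3082 against 247 and 167 under the cKO label, and 54 and 2352 against 144 and 136 over all libraries.

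Replicate numbers did not pair the samples, since deviations of same-numbered libraries had a mean correlation of -0.0139 over 18 pairs. With the replicate block the control-label count stayed at 1 and the cKO-label count was 1, but the adjusted p was above 0.05 for Adra2c (0.0728), Hrh1 (0.0544) and Hrh2 (0.0642) under the control label and for Adra2c (0.0583) and Hrh2 (0.0668) over all libraries. Under the control label it was also above 0.05 for Adra2c and Hrh1 with quantile scaling (0.0764 and 0.0677) and with no filter on low values (0.0537 and 0.0503), and with no filter for Hrh2 over all libraries (0.0548). With only the libraries whose title and tag agree it was 0.103 for Hrh3 under the cKO label and 0.0523 for Hrh2 over all of them. TPM hold no depth, so counting error for receptors near 1 TPM is unknown, and the 2 libraries labelled cKO cocaine limit that group.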
